A study of Arabidopsis thaliana with 9 samples.

Results

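Uninduced RGA-GR inflorescences were compared with nontransgenic inflorescences that had received dexamethasone (Dex), a pair of groups in which neither carries both the transgene and its inducer. The RGA-GR mock plants were ga1-3 rga rgl2 Arabidopsis thaliana that also carried RGA-GR and were mock treated. The nontransgenic Dex plants were ga1-3 rga rgl2 without the transgene, treated with Dex. RGA-GR is a fusion of the DELLA protein RGA with the glucocorticoid receptor, and its promoter and the number of lines are not given in the labels. All plants lacked a functional RGA and RGL2 of their own and carried the ga1-3 block in gibberellin (GA) synthesis. All were harvested at 4 h as inflorescences without flowers past stage 12. The comparison takes 6 of the 9 arrays of the series, 3 per group, and the 3 arrays of RGA-GR Dex (the same transgenic line with Dex) are given beside them as values. Of 22746 probe sets, 17273 passed a filter on low values and were tested. A single gene is named for 9628 of the tested ones.

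GA is a plant growth hormone whose nuclear receptors, the GID1 proteins, bind DELLA proteins and mark them for destruction. DELLA proteins hold back growth, floral organ development and stamen maturation, and with GA synthesis blocked they build up. A glucocorticoid receptor fusion is held in the cytoplasm until Dex lets it enter the nucleus. The design text names the nontransgenic plants as controls for effects of the T-DNA and of Dex. The RGA-GR mock and nontransgenic Dex groups differ in both at once, so a difference between them that comes with the transgenic line and one that comes with Dex cannot be told apart.

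Values are log2 of the deposited ratio, which in most rows is the ratio to the row's median over the 9 arrays, so a value of 0 is that median and values compare arrays, not genes. Differences are RGA-GR mock minus nontransgenic Dex on the log2 scale, with the moderated standard error (SE) from limma, and adjusted p values are Benjamini-Hochberg values over all probe sets tested. A change was called at an adjusted p under 0.05. Probe sets whose median ratio is under 1 have a divisor that is not stated, and those among the genes below are pointed out. The replicates are named as independent biological sets in the design text.

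Among the calls higher in RGA-GR mock were genes of photosynthesis, chlorophyll synthesis and amino acid breakdown. Among those lower were genes of histones, mitosis and pollen, and 1 of 3 iron supply genes tested. Each is given below with its counts. The lists of amino acid breakdown and mitosis, and a wider chlorophyll list, were drawn up after values were seen, so their counts are no independent evidence of a theme. Of the 17273 probe sets, 2635 (15.3%) were called, 1566 of them higher in RGA-GR mock (9.07% of those tested) and 1069 lower (6.19%). All counts of gene lists below are to be read beside these shares. At least 2-fold changes made up 1611 of the calls, 953 higher and 658 lower. The 3 mock arrays lay wholly above or wholly below the 3 nontransgenic arrays for 6903 probe sets (40%), 4033 above (23.3%) and 2870 below (16.6%), and 2622 of the calls were among them. The calls were more frequent where the median ratio is 1 (2538 of 15062, 16.9%) than where it is under 1 (97 of 2211, 4.39%). The median SE of a difference was 0.26, and the median difference over all probe sets tested was 0.07. On these ratios the filter can keep a probe set through 1 group: 83 passed through the nontransgenic arrays alone, and 14 of them were called lower. No nontransgenic array was above the filter's percentile for 1189 of the 1566 higher calls, and no mock array for 94 of the 1069 lower calls. RGA itself, and with it the transgene, was not analysed here, since the probe table names no probe set for it.

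The count rests on the second RGA-GR mock array. Without that array limma called 0 probe sets, with a smallest adjusted p of 0.058, 1678 probe sets under an adjusted p of 0.1 and 4341 under an unadjusted p of 0.05. All 2635 differences kept their direction without it, and 2634 of them had an unadjusted p under 0.05. The groups did not overlap for 2622 of these calls, and there leaving out an array cannot change the direction. The kept direction is thus no further evidence. With 0 calls left, every gene call below is lost without the second mock array. Without the first mock array 1341 probe sets were called, without the last 2289, and without each nontransgenic array in turn 1164, 1116 and 1357. The direction of the calls as a whole depends on scaling: 59.4% were higher in RGA-GR mock on the values as deposited and 37.3% with each array's median subtracted, a step that moves the median difference to -0.07.

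**Figure D1:**
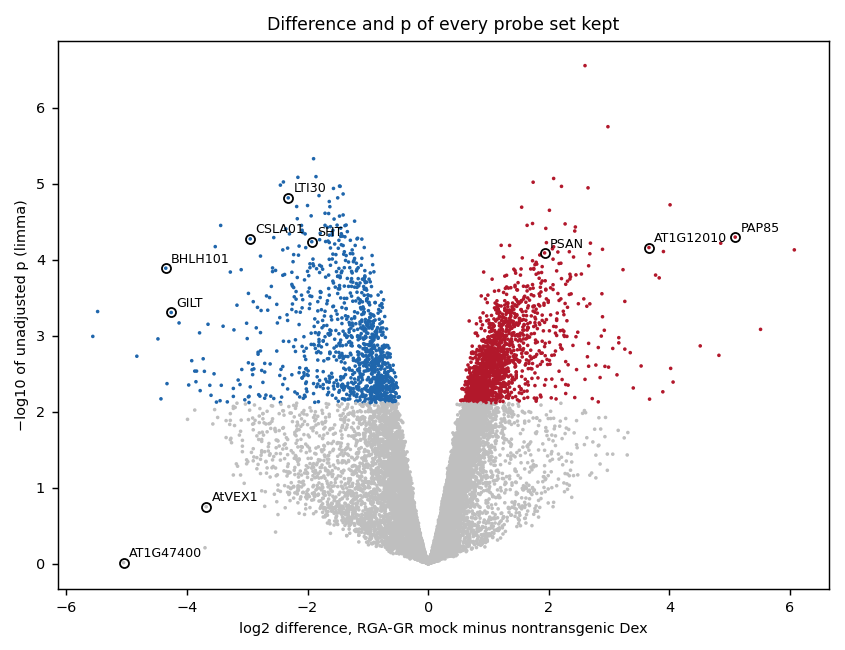
Log2 difference between RGA-GR mock and nontransgenic Dex (horizontal) against −log10 of limma's unadjusted p (vertical) for the 17273 probe sets tested; red points are the 1566 called higher in RGA-GR mock, blue points the 1069 called lower, grey points the rest, and open circles mark named genes. PAP85 stands at 5.09 on the right, and AT1G47400 at -5.05 has a p near 1 because of its fitted SE.

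Several control probe sets moved with the groups. The spike-in poly-A controls, bacterial RNAs that are added to a sample before labelling, had median log2 values of -3.52, -3.28 and 0.00 on the RGA-GR mock arrays, against 0.88, 0.93 and 1.25 on the nontransgenic arrays. The first and second mock arrays thus stood far below all others of these 6. The 18 hybridisation control probe sets (bioB, bioC, bioD and cre) had median log2 values of 0.32, 0.44 and -0.33 on mock arrays. The nontransgenic arrays had -0.28, -0.69 and -0.64, so the groups overlapped through the last mock array. The 25S ribosomal RNA probe set had ratios of 1.0, 17.8 and 0.50 on the mock arrays, against 0.08, 0.06 and 0.06 on the nontransgenic arrays. The 3′ minus 5′ probe set difference of a transcript is a measure of RNA integrity and labelling. For a first pair of GAPDH probe sets it was 0.17, 0.52 and -0.25 on mock arrays, against -0.74, -0.96 and -0.38 on nontransgenic arrays. For actin the same measure was -0.71, -0.25 and 0.49 on mock arrays, against 0.23, 0.05 and 0.40 on nontransgenic arrays, and for ubiquitin -0.63, -0.36 and 0.43 against 0.01, 0.11 and 0.33. The groups overlapped for these 2 transcripts, with 2 of the 3 mock arrays below all nontransgenic ones, the opposite side from that GAPDH pair. A further GAPDH pair did not repeat the shift of the first. Its 3′ values were -0.10, -0.03 and 0.00 on mock arrays, against 0.69, 0.71 and 0.43 on nontransgenic arrays. Its 5′ values were 0.18, 0.00 and -0.66, against 0.18, 0.34 and -0.20. The 3′ value thus lay below the 5′ value on the first and second mock arrays and above it on all nontransgenic arrays. The part of these shifts in the gene results was not tested. With spike-in signal as a block 1412 probe sets were called, and with only the arrays that carry the signal (1 mock array, 1 RGA-GR Dex array and the 3 nontransgenic arrays) 1029.

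**Figure D2:**
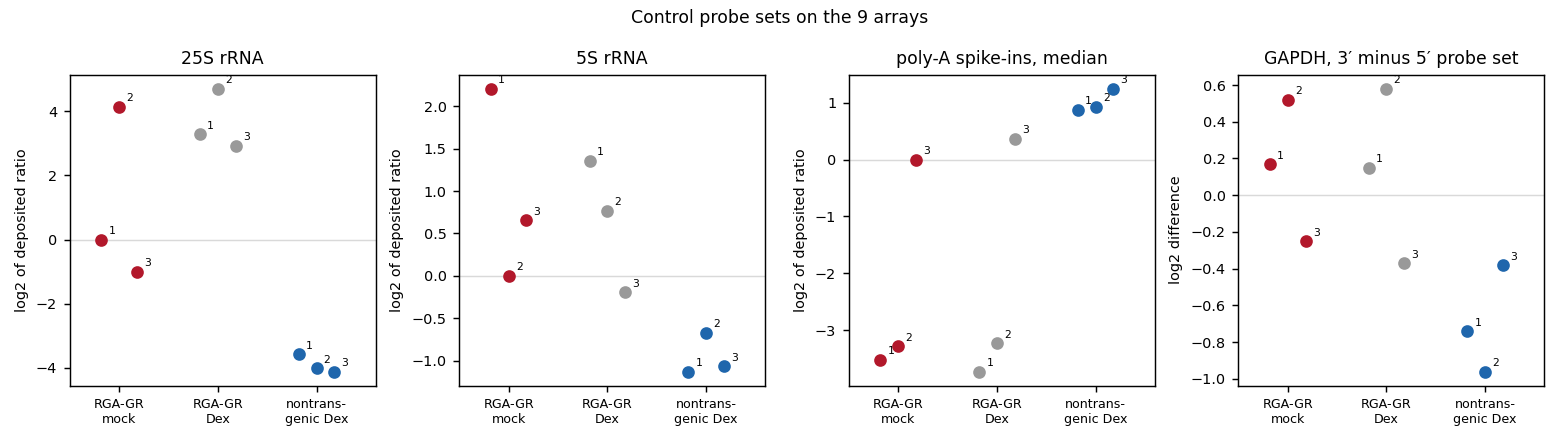
Control probe sets on each array, with RGA-GR mock at left, RGA-GR Dex in the middle and nontransgenic Dex at right; numbers beside points are replicate numbers, and the vertical axes are log2 of the deposited ratio or, in the last panel, the log2 difference of 2 GAPDH probe sets. The 3 nontransgenic arrays are low for 25S and 5S ribosomal RNA and high for the spike-ins.

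Most nuclear genes listed for photosynthesis were higher in RGA-GR mock. Of 8 listed genes tested, 5 were called higher and 0 lower, and their median difference was 1.03, against 9.07% called higher and a median of 0.07 over all probe sets. PSAN, a subunit of photosystem I, had values of 0.26, 0.19 and 0.44 on the mock arrays, against -1.62, -1.65 and -1.62 on the nontransgenic arrays. The groups were 3.81-fold apart and did not overlap (1.93 ± 0.31 SE, adjusted p = 0.0132, limma). PSAE-1, another photosystem I subunit, had 0.51, 0.53 and 0.00 against -0.83, -1.01 and -0.92 (1.27 ± 0.25, adjusted p = 0.0175). The antenna genes LHCB4.2 and LHCB4.1, which encode a minor light-harvesting protein of photosystem II, rose by 1.47 and 0.88. RCA, the Rubisco activase that keeps the carbon-fixing enzyme active, rose by 1.19, with mock values of 0.00, 0.00 and 0.01 against -1.10, -1.25 and -1.20. The listed members that were not called, PSBY (0.76), PSBW (0.56) and LHCB4.3 (0.28), also had positive differences, though that of LHCB4.3 was -0.21 with spike-in signal as a block.

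Some genes of chlorophyll synthesis were also higher. In a list of 8 nuclear genes of plastid ribosomes and chlorophyll synthesis, 3 were called higher and 0 lower, with a median difference of 0.70. The shares over all probe sets were 9.07% higher and 6.19% lower. CHLM, the methyltransferase that acts on magnesium protoporphyrin, had -0.01, 0.00 and 0.15 on mock arrays, against -1.35, -1.59 and -1.47 on nontransgenic arrays (1.52 ± 0.31, adjusted p = 0.0196). HEME1 and HEME2, both uroporphyrinogen decarboxylases of the shared heme and chlorophyll route, rose by 1.12 and 0.97. A wider list of 14 chlorophyll and Calvin cycle genes, drawn up after values were seen and sharing CHLM, HEME1 and HEME2, had 8 called higher and 0 lower. Its other risers were RCA (1.19), which also counts in the photosynthesis list, hemf2 (1.89), a coproporphyrinogen oxidase, LIL3:2 (1.38), a light-harvesting-like protein, HPR (0.81), the hydroxypyruvate reductase of photorespiration, and PRK (0.80), the Calvin cycle kinase that makes ribulose bisphosphate. In the list of 8, HEMA3, a glutamyl-tRNA reductase, was not called at -3.35 ± 1.12 (adjusted p = 0.0674), with mock values of -4.98, -3.18 and -0.72 against 0.33, 0.37 and 0.47. It has a median ratio under 1, passed the filter through the nontransgenic arrays alone, and was at -1.11 with only the arrays that carry spike-in signal. The wider list does not hold HEMA3.

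Few transcripts encoded in the plastid itself were called, in a list drawn up after values were seen. Of 68 plastid-encoded genes tested, 2 were called higher, ndhC (0.93) and rps14 (1.24), and 1 lower, with a median difference of -0.57. Over all probe sets 9.07% were called higher and 6.19% lower. The array medians of this list were -1.05, -0.58 and 0.57 on the mock arrays, against 0.29, 0.00 and 0.03 on the nontransgenic arrays. The mock arrays therefore spread over both sides of the nontransgenic ones. The gene called lower was atpA, a subunit of the plastid ATP synthase, with -2.51, -3.51 and -0.97 on mock arrays against 0.84, 1.48 and 2.05 on nontransgenic arrays (-3.79 ± 0.83, adjusted p = 0.0216).

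Genes for amino acid breakdown and for metabolism under low sugar were higher in RGA-GR mock. The list of 13, drawn up after values were seen, had 10 called higher and 0 lower, against 9.07% and 6.19% over all probe sets. Its median difference was 1.23, and the remaining 3 also had positive differences. MCCA, a subunit of methylcrotonyl-CoA carboxylase in leucine breakdown, had -0.39, 0.00 and 0.34 on mock arrays, against -1.71, -1.76 and -2.40 on nontransgenic arrays (1.94 ± 0.44, adjusted p = 0.0239). IVD, the isovaleryl-CoA dehydrogenase one step earlier, rose by 1.64, and ETFQO, which passes its electrons to the respiratory chain, by 1.23. MCCB, the partner subunit of MCCA, had a difference of 0.87 ± 0.35 that was not called (adjusted p = 0.114).

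AKINBETA1, a regulatory subunit of the SnRK1 kinase that responds to low energy, rose by 1.81 ± 0.39. SWEET17, a vacuolar fructose transporter, had 0.28, 0.23 and 0.63 on mock arrays, against -1.47, -1.65 and -1.01 on nontransgenic arrays (1.75 ± 0.30, adjusted p = 0.0139). The other risers were F2KP (1.43), which sets the level of fructose 2,6-bisphosphate, PPDK (1.27), the pyruvate orthophosphate dikinase, ALN (0.99), the allantoinase of purine breakdown, SDP1 (0.89), a lipase of stored oil, and DELTA-OAT (0.84), the ornithine aminotransferase. On the RGA-GR Dex arrays, MCCA had 0.07, 1.44 and 1.68, so the last 2 of these arrays lay above every mock array. The corresponding SWEET17 values were 0.00, -0.06 and 0.29.

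**Figure D3:**
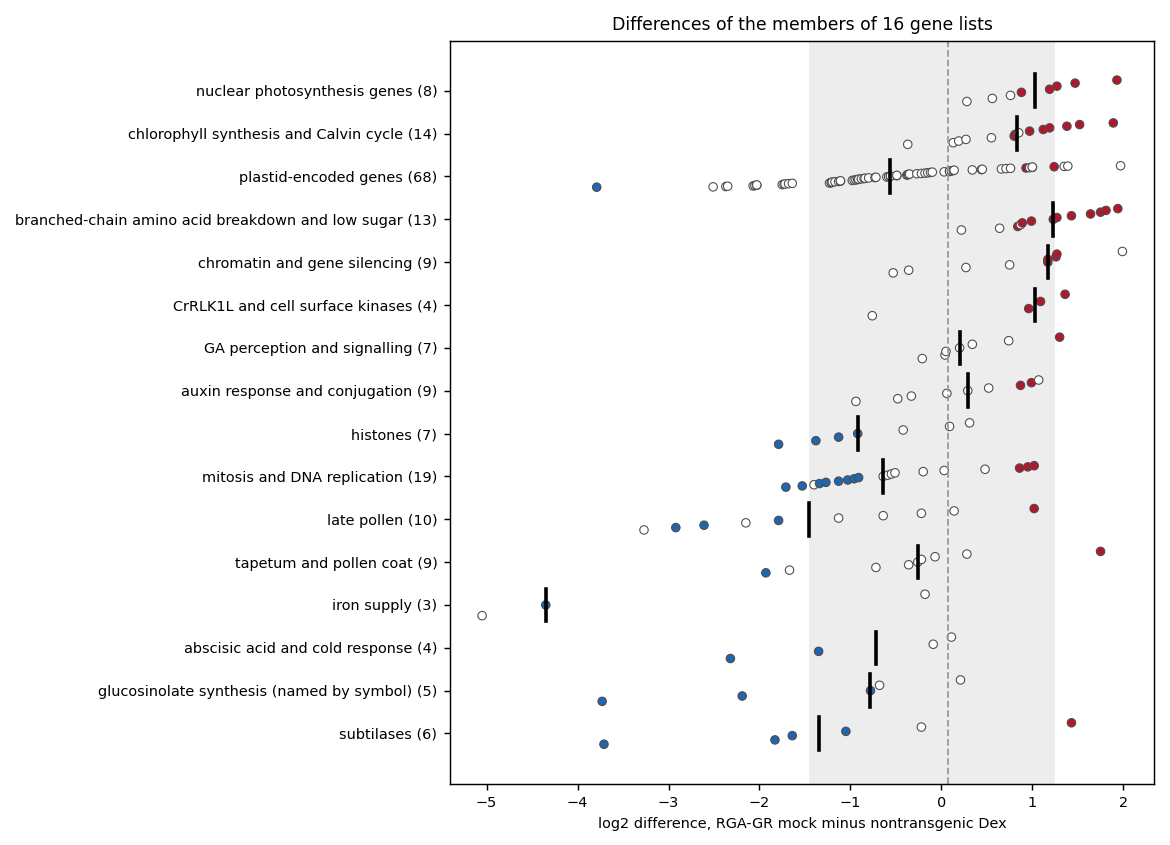
Log2 difference of each tested member (points) of 16 gene lists between RGA-GR mock and nontransgenic Dex, with the number tested in brackets; red points were called higher in RGA-GR mock, blue points lower, open points were not called, black bars are list medians, the dashed line is the median of all 17273 probe sets and the grey band holds the central 90% of them. The lists of nuclear photosynthesis and of amino acid breakdown lie right of the dashed line, with medians of 1.03 and 1.23. The lists of amino acid breakdown, chlorophyll synthesis and Calvin cycle, plastid-encoded genes and mitosis were drawn up after values were seen. So were those of chromatin, cell surface kinases and glucosinolates.

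Several genes of dividing cells were lower in RGA-GR mock. Of 7 histone genes tested, 0 were called higher and 4 lower, with a median difference of -0.92, against 6.19% called lower over all probe sets. The H2B genes HTB2 and HTB1 fell by 1.38 and 0.92, and HTR12, the histone H3 of centromeres, fell by 1.13. The other was MGH3, a histone H3 of the male germ line, which is given with the pollen genes. HTB2 had 0.00, -0.43 and -0.03 on the mock arrays, against 1.33, 1.15 and 1.19 on the nontransgenic arrays, with no overlap. HTR12 has a median ratio under 1.

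In a list of 19 mitosis and DNA replication genes drawn up after values were seen, 3 were called higher and 8 lower, with a median difference of -0.64. Over all probe sets 9.07% were called higher and 6.19% lower. The list shares HTR12 with the histones and TUB7, TUA6 and TUA1 with a tubulin list, so these calls are counted in both. AUR2, an Aurora kinase of the spindle and cell plate, had 0.00, -0.85 and -0.80 on mock arrays, against 1.16, 0.90 and 1.43 on nontransgenic arrays (-1.71 ± 0.25, adjusted p = 0.0129). Its paralogue AUR1 fell by 1.27, and AUR3 had -0.55 ± 0.18 (adjusted p = 0.0601). Also lower were 3xHMG-box2 (-1.53), a protein of mitotic chromosomes, TOPII (-1.34), the DNA topoisomerase II, and PRL (-1.03), a subunit of the replicative helicase. Tubulins did not move as one: TUB7 (-0.96) and TUA6 (-0.91) fell and TUA1 (1.02) rose, out of 7 tested with 1 called higher and 2 lower. KEU (0.86), which acts in vesicle fusion at the cell plate, and ATZW10 (0.95) were the other 2 called higher. Within the mock group, AUR2 was highest on the first array.

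Some late pollen genes were lower in RGA-GR mock, with the first mock array nearest to the nontransgenic ones. Of 12 listed late pollen genes, 10 were tested. Among these, 3 were called lower and 1 higher, against 6.19% and 9.07% over all probe sets, and the median difference was -1.46. The list's median value was 0.13, -0.77 and -0.42 on the mock arrays, against 0.90, 0.90 and 0.64 on the nontransgenic arrays. MGH3 had 0.42, -1.34 and -1.23 against 1.04, 1.30 and 0.88 (-1.79 ± 0.50, adjusted p = 0.0395). The listed loci AT1G29140 and AT5G45880 fell by 2.92 and 2.61. AT1G29140 had 1.19, -0.72 and -1.06 on mock arrays, against 2.93, 2.55 and 2.68 on nontransgenic arrays. TUA1, an alpha tubulin of pollen that also stands in the tubulin list, was the member called higher.

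The largest negative difference in the list, AT3G07820, did not pass the test: it had 0.96, -2.10 and -2.13 on mock arrays, against 2.52, 1.93 and 2.09 on nontransgenic arrays (-3.27 ± 1.22, adjusted p = 0.0912). In these bulk samples fewer pollen cells and less RNA per pollen cell cannot be told apart. On the RGA-GR Dex arrays the list's median was -0.03, -3.20 and -1.44. The order of arrays within the transgenic line was therefore the same for mock and Dex, with the first array highest and the second lowest.

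Genes of the tapetum, the anther layer that feeds pollen, were called in both directions. Of 9 tested, 1 was called higher (AT5G52160, 1.75) and 1 lower, against 9.07% and 6.19% over all probe sets. The differences of 7 were negative, with a median of -0.26 against 0.07 over all probe sets. The one called lower was SHT, the hydroxycinnamoyl transferase that makes spermidine conjugates for the pollen coat, with 0.00, -0.42 and -0.49 on mock arrays against 1.72, 1.39 and 1.77 on nontransgenic arrays (-1.93 ± 0.30, adjusted p = 0.0129). Of 3 early anther regulators, EMS1, the receptor kinase that sets tapetum identity, fell by 0.94 ± 0.26. The other two were not called. SWEET8, a sugar transporter needed for the pollen wall, had -0.12, -0.61 and -0.50 against 0.75, 0.60 and 0.73 (-1.10 ± 0.18, adjusted p = 0.0136). Of 16 MADS-box genes tested, only AGL42 was called, higher by 1.0. The labelled tissue could not be checked by the floral organ identity genes, and root markers were not analysed here either, since the probe table names none of them. Of 6 seed genes tested, 1 was called higher and 1 lower, and oleosin OLEO3 had -0.46.

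The largest rise among calls that carry the name of 1 gene was that of a seed storage gene. PAP85, which encodes a vicilin-like seed storage protein, had -0.41, 0.81 and 0.93 on RGA-GR mock arrays, against -4.31, -5.22 and -4.41 on nontransgenic arrays, a 34-fold difference (5.09 ± 0.77, adjusted p = 0.0129). The RGA-GR Dex arrays had 0.00, 1.75 and 1.82, so all 6 arrays of the transgenic line stood above all 3 nontransgenic ones. Other seed genes did not follow, with AT2G46140 at -1.71 (called) and LEA18 at -2.80 ± 1.01 (adjusted p = 0.0831). Among such calls with a median ratio of 1 the next was AT1G12010, a locus of the ethylene list, with 0.00, 1.29 and 0.88 against -3.11, -2.32 and -3.40 (3.66 ± 0.58, adjusted p = 0.0129). AT1G13650, whose median ratio is under 1, had 1.47, 1.22 and 0.63 on mock arrays against -2.55, -3.44 and -5.15 on nontransgenic arrays (4.82 ± 1.16, adjusted p = 0.0272).

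**Figure D4:**
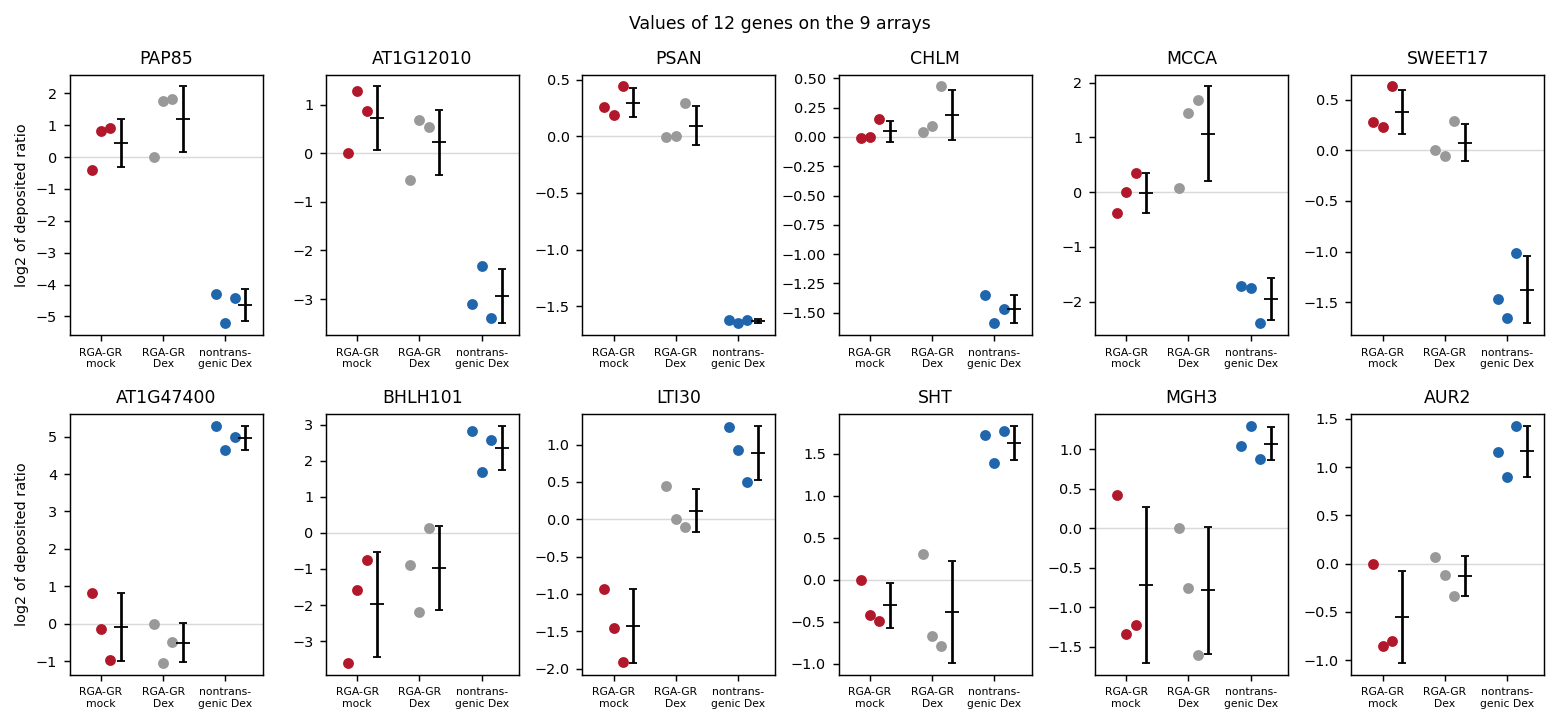
Log2 of the deposited ratio (vertical) of 12 genes on each array, with RGA-GR mock at left, RGA-GR Dex in the middle and nontransgenic Dex at right; points are arrays, and bars are the mean ± SD of 3 arrays. In every panel the 3 mock arrays lie on one side of the 3 nontransgenic arrays. The 12 genes were chosen with their values known, and 40% of all probe sets tested are separated in this way.

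Of 3 iron supply genes tested out of 4 listed, 1 was called lower and 0 higher in RGA-GR mock. The shares over all probe sets were 6.19% lower and 9.07% higher. The largest difference in the list missed the test through its fitted error. BHLH101, a transcription factor induced by iron shortage, had -3.60, -1.59 and -0.75 on mock arrays, against 2.84, 1.68 and 2.58 on nontransgenic arrays, a 20.3-fold difference (-4.35 ± 0.74, adjusted p = 0.0139). Its median ratio is under 1, and none of the 3 mock arrays passed the percentile of the filter. AT1G47400, a locus of the same list, had 0.83, -0.13 and -0.96 on mock arrays, against 5.28, 4.63 and 4.99 on nontransgenic arrays, a 33.2-fold difference with no overlap. Its RGA-GR Dex values were 0.00, -1.04 and -0.49, near those of the mock arrays.

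For AT1G47400 the test as designed gave -5.05 ± 131.4 (adjusted p = 0.983), although the SD was 0.89 on mock arrays and 0.32 on nontransgenic arrays. It has the highest mean log2 value of all probe sets tested, and the prior variance of limma's trend climbs steeply at that end. Without the trend the same difference had an SE of 0.45 and an adjusted p of 0.00273, and with a robust trend an SE of 0.61 and an adjusted p of 0.0132. The SE exceeded 2.5 for 4 probe sets, those with the highest mean log2 values, and all 4 were called without the trend. AtVEX1, a gene of the pollen vegetative cell and also among them, had 1.25, -1.79 and -0.55 on mock arrays against 3.50, 2.90 and 3.54 on nontransgenic arrays (adjusted p = 0.341 as designed, 0.014 without the trend). The others were AT3G02480 (-2.53) and a probe set with no gene name.

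The remaining gene of the iron list, PYE, was at -0.18 ± 0.26. Outside it, bHLH121, a factor that acts upstream in the iron response, rose by 0.96 ± 0.23, with 0.00, -0.01 and 0.16 on mock arrays against -0.69, -1.03 and -1.01 on nontransgenic arrays. Of 3 metal transporters tested, limma called 0, against 15.3% over all probe sets, though all 3 had an unadjusted p under 0.05. Among them ZIP9 had the lowest difference, -2.06 ± 0.75 (adjusted p = 0.0854). ZIP9 had -1.13, -3.93 and -0.73 on mock arrays, against 0.30, 0.09 and 0.00 on nontransgenic arrays, and the difference was -1.06 without the second mock array.

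Cold and drought proteins were split. Of 4 genes in the abscisic acid and cold list, 2 were called lower and 0 higher, against 6.19% and 9.07% over all probe sets. The remaining 2 lay between -0.09 and 0.11. LTI30, a dehydrin, had -0.93, -1.45 and -1.91 on mock arrays, against 1.23, 0.93 and 0.50 on nontransgenic arrays, a 4.98-fold difference (-2.32 ± 0.31, adjusted p = 0.0129). COR15A, a cold-induced protein of the chloroplast stroma, had -0.02, 0.00 and -0.14 against 1.69, 1.07 and 1.15 (-1.35 ± 0.26, adjusted p = 0.0169). A wider list of 8 cold and stress proteins, drawn up after values were seen and holding these 4 genes, had 1 called higher, DI19 (0.74), and 5 lower, among them STZ, a zinc finger repressor of stress genes (-1.71). LTI30 is a case where the RGA-GR Dex arrays, at 0.44, 0.00 and -0.10, lay between both groups.

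Glucosinolates are defence compounds of the cabbage family. In a list of 5 genes for their synthesis, drawn up after values were seen, 3 were called lower in RGA-GR mock and 0 higher. Over all probe sets 6.19% were called lower and 9.07% higher. BCAT4, which starts the chain elongation of methionine, had -0.38, -4.47 and -3.01 on mock arrays, against 0.98, 1.26 and 1.09 on nontransgenic arrays (-3.73 ± 0.91, adjusted p = 0.028), with a median ratio under 1. It passed the filter through the nontransgenic arrays and 1 RGA-GR Dex array, with 0 mock arrays above the percentile. GSTU20, a glutathione transferase, fell by 2.19, and UGT74B1, which adds the glucose of the glucosinolate core, by 0.78. Of 3 flavonoid genes tested, 2 were called lower, both with a median ratio under 1. DFR, a reductase of anthocyanin synthesis, had -0.66, -0.02 and -0.55 against 1.52, 1.42 and 1.52 (-1.90 ± 0.52, adjusted p = 0.0383). It passed the filter through the nontransgenic arrays and 1 mock array. UF3GT, a flavonoid glycosyltransferase, fell by 3.62 ± 1.0 and passed the filter through the nontransgenic arrays alone.

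Hormone genes were called in both directions in short lists, against 9.07% higher and 6.19% lower over all probe sets. Of 7 GA perception and signalling genes, 1 was called higher and 0 lower, with a median difference of 0.20. That gene was GID1A, a GA receptor, with 0.13, 0.00 and 0.16 on mock arrays against -1.64, -1.12 and -0.85 on nontransgenic arrays (1.30 ± 0.33, adjusted p = 0.0297). The receptor GID1C had -0.68, 0.00 and 0.62 on mock arrays, against -1.04, -0.45 and -0.80 on nontransgenic arrays, so the groups overlapped (0.74 ± 0.31, adjusted p = 0.124). It was called at 1.07 without the first mock array and was at 0.42 without the last. GID1B had -0.21 ± 0.20 (adjusted p = 0.495). Of 9 auxin genes, the amino acid conjugating enzymes GH3.3 (0.87) and GH3.9 (0.99) were called higher and 0 lower. Both of the 2 ethylene genes tested were called higher: AT1G12010, given above, and EIN3, the main transcription factor of ethylene signalling, which rose by 1.04 ± 0.23. The 1 cytokinin gene tested was not called. Of 2 jasmonate genes tested, OPCL1, a ligase of jasmonate synthesis, was called, and fell by 1.39 ± 0.25. JMT, which makes methyl jasmonate, was not called at -0.82 ± 0.36 (adjusted p = 0.14).

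Cell wall and cell surface genes moved in both directions. CSLA01, a member of the family that makes mannan backbones, had 0.00, -1.47 and 0.15 on mock arrays, against 2.30, 2.22 and 3.02 on nontransgenic arrays (-2.95 ± 0.45, adjusted p = 0.0129). CSLA03 of the same family rose by 1.43 ± 0.35, with 0.44, 0.07 and 0.00 against -0.62, -1.46 and -1.71. COB, which orients cellulose deposition, rose by 0.69, and GH9B13, a glycosyl hydrolase of the endoglucanase family, fell by 2.36 ± 0.35. Of 13 expansins, 0 were called higher and 1 lower. Of 6 subtilases, which are secreted proteases, 4 were called lower and 1 higher, against 6.19% and 9.07% over all probe sets. Their differences ran from SBT4.13 (-3.71, median ratio under 1) to SBT3.12 (1.43). SBT4.13 passed the filter through the nontransgenic arrays and 1 mock array.

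In a list of cell surface kinases drawn up after values were seen, FER (1.36), THE1 (0.96) and CR4 (1.09) rose, 3 of 4 tested. FER and THE1 are receptor kinases of one family that sense the state of the wall. FER had 0.00, 0.26 and -0.02 on mock arrays against -1.42, -1.41 and -1.01 on nontransgenic arrays. Of 9 chromatin genes, also listed after values were seen, 4 were called higher and 0 lower, against 9.07% and 6.19% over all probe sets. These were BPC1 (1.27), a GAGA-binding factor, BSH (1.26) and CHC1 (1.17), both subunits of SWI/SNF remodelling complexes, and SHL1 (1.17), a reader of histone marks.

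Among the largest differences of genes with a symbol were also GILT, a thiol reductase, and THI2.1, a thionin of plant defence. GILT had 1.15, -1.57 and -1.49 on mock arrays, against 4.08, 3.56 and 3.23 on nontransgenic arrays (-4.26 ± 0.86, adjusted p = 0.0183). THI2.1 had 0.98, -0.78 and -1.20 against 2.85, 2.94 and 2.72 (-3.17 ± 0.62, adjusted p = 0.0175). For both genes the first mock array was the only one of its group above 0, as it was for AT1G29140. Among risers, UGT85A2 (2.21), a glycosyltransferase, PDF1.4 (2.26), a defensin, KELP (2.17), a transcriptional coactivator, and SAMTL (2.66) were also called. Of 31 glycosyltransferases of the UGT family, 4 were called higher and 3 lower, against 9.07% and 6.19% over all probe sets. Their median difference was -0.13.

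Sugar transporters outside the low sugar list moved in both directions. A list of SWEET and tonoplast carriers was drawn up after values were seen. Of its 12 transporters tested, 2 were called higher and 3 lower, against 9.07% and 6.19% over all probe sets. SWEET4, a plasma membrane sugar carrier, had 0.20, -0.06 and -0.01 on mock arrays, against 1.90, 1.91 and 1.55 on nontransgenic arrays (-1.75 ± 0.36, adjusted p = 0.0198). TMT3, a tonoplast monosaccharide transporter, had 0.45, 0.00 and -0.73 against 1.46, 1.69 and 1.73 (-1.72 ± 0.35, adjusted p = 0.019). Its relative TMT1 moved the other way, by 0.54 ± 0.16 (adjusted p = 0.0482), and SFP1, a sugar porter, rose by 1.19.

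Of 10 glutathione transferases tested, 3 were called higher and 2 lower, against 9.07% and 6.19% over all probe sets. GSTU18 (0.95), GSTU16 (1.01) and GSTU27 (0.88) rose. GSTU25 had -1.65, -0.51 and 0.00 on mock arrays, against 2.04, 2.22 and 0.90 on nontransgenic arrays (-2.44 ± 0.63, adjusted p = 0.0317). The median difference of the family was -0.13.

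Transcription factor families held calls in both directions, to be read against 15.3% called over all probe sets. The 1 NAC gene tested was called higher, by 0.76. Of 7 WRKY genes tested, 0 were called higher and 1 lower (WRKY6, -1.12). Of 5 bHLH genes, BHLH101 fell and bHLH121 rose, and of 10 basic leucine zipper (bZIP) genes bZIP58 was called, higher by 1.76. That gene had 0.16, 1.08 and 0.00 on mock arrays, against -0.86, -1.98 and -1.20 on nontransgenic arrays. In the lists of 17 signal peptides, 13 F-box and ubiquitin ligase genes and 8 aldehyde dehydrogenases, limma called 0 genes, and 2, 0 and 5 members had an unadjusted p under 0.05. Of 20 serine carboxypeptidases, 13 beta-glucosidases and 12 genes matched as cytochromes P450, 1, 1 and 2 were called higher and 0 lower, led by BGLU45 (2.01). CYP59, one of those 2, is a cyclophilin that matched by its symbol.

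Many of the largest differences fell on loci for which the tables give no name beyond the locus. The lowest values among calls with 1 gene were those of AT1G71680, with -0.47, -3.60 and -4.86 on mock arrays against 2.87, 2.28 and 2.61 on nontransgenic arrays, and AT4G12890, with 0.25, -4.04 and -4.59 against 2.90, 3.03 and 2.11. They differed by -5.56 ± 1.23 and -5.48 ± 1.10, and both have a median ratio under 1. AT1G71680 passed the filter through the nontransgenic arrays alone, and AT4G12890 through these and 1 mock array. In both, the first mock array stood nearest to the nontransgenic ones.

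With a median ratio of 1, AT5G61605 had 0.00, -1.63 and -0.50 on mock arrays, against 2.90, 2.76 and 2.80 on nontransgenic arrays (-3.53 ± 0.55, adjusted p = 0.0129). AT2G30600 was higher in RGA-GR mock by both of its probe sets, by 2.34 ± 0.37 and 3.16 ± 0.72. AT1G19540 had 0.16, -0.01 and 0.00 against -2.04, -2.35 and -2.78 (2.44 ± 0.36, adjusted p = 0.0129), with RGA-GR Dex arrays at 0.70, 1.69 and 1.49, above all mock arrays. Tight groups marked AT3G56360, with -0.36, -0.81 and -0.30 on mock arrays against 1.70, 1.26 and 1.25 on nontransgenic arrays (-1.90 ± 0.22, adjusted p = 0.0129), and AT3G03270, with -0.47, -0.48 and -0.22 against 1.38, 1.83 and 1.20 (-1.86 ± 0.23, adjusted p = 0.0129). AT5G55450 had 1.17, 1.01 and 0.56 on mock arrays against -0.71, -1.02 and -0.74 on nontransgenic arrays (1.74 ± 0.22, adjusted p = 0.0129). The RGA-GR Dex values of AT5G55450 were 0.46, 0.00 and -0.14, between both groups.

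The spread differed between groups. The median SD over probe sets was 0.32 in RGA-GR mock and 0.22 in nontransgenic Dex. The root mean square log2 difference between 2 mock arrays was 0.881 to 0.910, against 0.602 to 0.636 between 2 nontransgenic arrays, and 0.952 to 1.192 between a mock and a nontransgenic array. A pair of mock arrays was thus nearly as far apart as the nearest mock and nontransgenic pair. Against the mean of the nontransgenic arrays, 1778 probe sets on the first mock array were over 2-fold higher, 2183 on the second and 1560 on the other one, and 1657, 2166 and 1634 were over 2-fold lower.

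**Figure D5:**
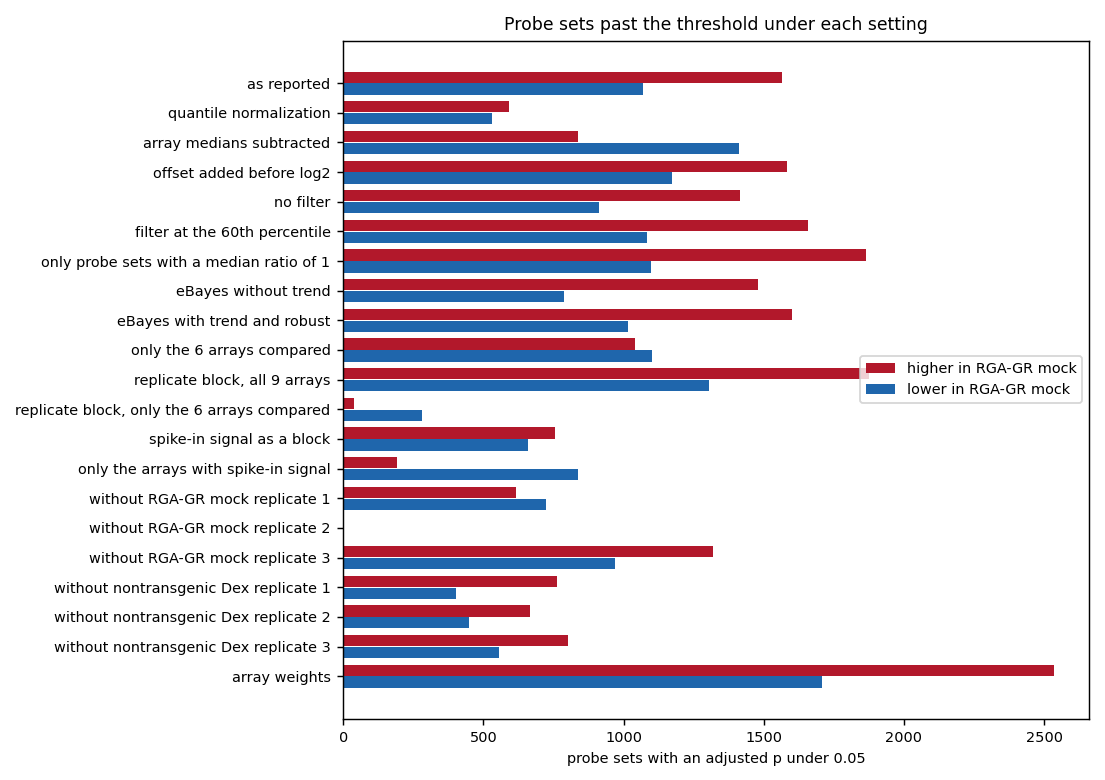
Number of probe sets with an adjusted p under 0.05 (horizontal) for the comparison as reported and under 20 other settings, in red those higher in RGA-GR mock and in blue those lower. The count is 0 without the second RGA-GR mock array and 4244 with array weights.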

How the data were processed

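RNA was hybridised to 9 Affymetrix arrays, 3 per group. The submitters' processing notes name GCOS and give no version of it. The values deposited are linear ratios, as read from the values, whose row median over the 9 arrays is exactly 1 in 15112 of 22810 rows and under 1 in 7698, with the divisor in those 7698 rows, the array scaling and the handling of dim probe sets not given in the sources used here. The design had allowed for signal values, so the filter and the trend of the prior variance act on log ratios.

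The 64 control probe sets were left out. The log2 of the ratio was taken with no offset, and a probe set was kept when 3 or more of its 9 values exceeded the 40th percentile of their array. The test was that of limma 3.58.1, run in R 4.3.3 (lmFit over all 9 arrays with 3 group means, eBayes with trend, two-sided, Benjamini-Hochberg, 6 residual degrees of freedom) and checked on simulated data. With 3 arrays in each group the smallest p of an exact permutation test is 0.1, and the number of arrays limits the precision. Array replicate numbers did not pair the groups compared: the deviations of same-numbered mock and nontransgenic arrays correlated at 0.006, 0.036 and -0.039. Same-numbered mock and RGA-GR Dex arrays were not checked in this way. Their spike-in medians went together, at -3.52, -3.28 and 0 on mock arrays and -3.73, -3.23 and 0.37 on RGA-GR Dex arrays. The test took all 9 arrays as independent.

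The members of the comparison, the gene lists and the tests were chosen with earlier results of these data known, and 9 lists were drawn up after values were seen. Of the lists, those with no member named by the probe table give no value. Named genes were, among calls with 1 gene and groups that did not overlap, the 15 largest rises and falls with a median ratio of 1 and the 5 with a median under 1, the 10 rises and falls with the lowest p, and the 3 members of each list with the lowest p. The text describes mainly those with a known role. Genes outside the rule were chosen after their values were seen: the members of the added lists, genes with symbols, further list members, AtVEX1 and AT3G02480. In the gene lists, 1 probe set stands for a gene. A single gene is paired with 13513 probe sets, several with 503 and none with 8730, and 13436 of the 13513 matched the gene table of TAIR10.1, used for names only.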

Additional observations from a re-analysis of the deposited data

Results flagged for a closer look

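Outside the tested probe sets, 3 plant control probe sets were at least 2-fold higher in RGA-GR mock, with all mock arrays above all nontransgenic arrays. The 25S ribosomal RNA control differed by 4.95 on the log2 scale, with the second mock array highest. The 5S ribosomal RNA control differed by 1.91, and the control for the sequence U12639 by 1.14. The part of ribosomal RNA in the differences of messenger RNAs was not tested.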

How the results depend on the processing

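The 2635 calls kept their direction under all 20 alternatives that measured them, while their number moved widely. The calls were chosen on these same arrays, and 2622 of them had groups that did not overlap. Leaving out arrays cannot reverse those, so the kept direction is no independent evidence. With quantile normalization 1123 probe sets were called (592 higher and 531 lower in RGA-GR mock), and with array medians subtracted 2251 (839 and 1412). With spike-in signal as a block 1412 were called (754 and 658), and with only the arrays that carry that signal 1029 (192 and 837). With only the 6 arrays compared 2140 were called (1040 and 1100). Array weights, an alternative chosen after seeing the data, gave 4244 (2535 and 1709), and a 2-fold minimum 1611 (953 and 658). The cause of these shifts was not tested, apart from the 2-fold minimum, which only drops smaller changes. Leaving out 1 array gave 0 to 2289 calls, 0 to 1320 higher and 0 to 969 lower, with the 0 from the second RGA-GR mock array. With the replicate number as a block, 3181 were called over 9 arrays (1875 and 1306) and 319 over the 6 arrays compared (37 and 282), although the numbers did not pair these groups. Without a filter 2325 were called, with a filter at the 60th percentile 2741, with an offset of 0.0894 added to the ratio 2757, without the trend 2269 and with a robust trend 2616. Of the genes in the text, 106 were called, and 0 of these reversed, which is no independent evidence either. Many lost the call: 45 with quantile normalization, 46 with the spike-in block, 73 on arrays with spike-in signal, 85 with the replicate block over 6 arrays, 20 with array medians subtracted, 20 with only the 6 arrays compared, and 28 to 106 with 1 array left out. The least stable were GSTU27 and TMT1, called under 5 of 20 alternatives, and TUA1, GH3.9 and CYP59, called under 6. Among those not called, PYE turned to 0.04 with the spike-in block and 0.16 on arrays with spike-in signal, and leaving out 1 array gave it -0.36 to 0.02, OLEO3 to 0.23 on arrays with spike-in signal, and LHCB4.3 to -0.21 with the spike-in block and -0.15 on arrays with spike-in signal. With 3 arrays per group the SE of a difference had a median of 0.26, and ratios carry no signal over background.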
